A study of Mus musculus with 54 samples.

Results

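The Kcnj16, Kcnj2 and Sox9 region is a stretch of 2.3 Mb of mouse chromosome 11 in build mm10. All CTCF, Rad21 and Smc3 peaks with a summit in this stretch were taken, and peaks that overlapped by at least 1 bp in any of the 44 peak lists of the series were merged into sites. This gave 26 sites of the 75882 in the whole genome, numbered 1 to 26 from left to right below, the first starting at 110897398 and the last ending at 113039395. Their positions chose them, and no measured level did.

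The cells were E14 embryonic stem cells (ESCs) of the mouse and the neural progenitor cells (NPCs) derived from them over 2 days, and binding was mapped by chromatin immunoprecipitation and sequencing (ChIP-seq). Both native CTCF alleles of the rescue lines carried a degron tag that is recognised by a plant F-box protein expressed from Rosa26, and a doxycycline-inducible Flag-Halo CTCF was integrated at Tigre, either lacking zinc finger 1 (ΔZF1) or wild type (WT). All rescue cells, WT included, were treated for 24 hours with 1 µM 5-Ph-IAA, an auxin analog by which the tagged CTCF is degraded, and with 1 µg/ml doxycycline. The CTCF antibody was used in 4 libraries each of NPC-ΔZF1, NPC-WT, ESC-ΔZF1 and ESC-WT, and the antibodies against Rad21 and Smc3, both cohesin subunits, in 2 libraries each of these groups. CTCF and Smc3 were also mapped in 2 NPC libraries each of the Podxl pA and Grb10 pA lines, which carry a homozygous polyadenylation cassette that truncates the named RNA, and of parental E14 cells without degron, rescue or treatment. The 10 input samples had no peak list and were not analysed here. A peak list holds no expression, so cell identity and rescue protein were not checked against markers.

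Kcnj2 and Kcnj16 encode inward rectifier potassium channel subunits, and Sox9 encodes an HMG-box transcription factor needed for cartilage, testis and glial development. The genes lie on either side of a long gene desert that carries distant Sox9 enhancers, and the locus is known for its pair of neighbouring topologically associating domains (TADs), one around the Kcnj genes and one around Sox9. CTCF stops the cohesin ring as it extrudes a loop when the ring meets the motif in one direction, so the strand of a motif says to which side a site can anchor loops. No contact map was used here, and the domain boundary itself was therefore not measured. The sites between the genes are described by their peaks alone.

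In the annotation (GENCODE M21), Kcnj16 runs from 110968033 to 111027968, Kcnj2 from 111066164 to 111076821 and Sox9 from 112782224 to 112787760, all on the plus strand. The long noncoding transcript BC006965 runs on the minus strand from 112663927 to 112781976, so that it starts just before the Sox9 start and runs away from Sox9. The other annotated genes in the interval are pseudogenes and lincRNAs. Of the 26 sites, 3 lay before the end of Kcnj2, 19 in the 1.71 Mb between Kcnj2 and Sox9, and 4 at or beyond Sox9. The density was close to even over these stretches (10.8, 11.1 and 12.6 sites per Mb), and over the region it was 11.3 sites per Mb, against 27.8 in the genome.

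The CTCF core motif searched was CCA, 2 free bases, AG, 2 free bases and GGC, on both strands and with at most 1 mismatch at the 8 fixed letters, within 50 bp of the summit of each site's strongest CTCF peak. It was found at 16 of the 26 sites (61.5%, 95% Wilson interval 42.5% to 77.6%, counting error only), against 69.5% of the 68058 CTCF sites in the genome and 9.62% of windows 1000 bp away from them. The sequences of 8 sites are shown because the strand of the core changes among them within the gene desert. Each is given 5′ to 3′ on the strand of the motif from the GRCm38.p6 genome, with the 12 bases of the core in capitals. Sites 2 (chr11:111042379-111042408), 4 (chr11:111445970-111445999), 5 (chr11:111523663-111523692) and 6 (chr11:111532647-111532676) carried it on the minus strand.
site 2, minus strand: gtcttgtaaCCACAAGGTGGCgcaataggg
site 4, minus strand: atgtaataaCCACCAGAGGGCgaaagagat
site 5, minus strand: ttggtttggCCAACAGGTGGCgccattgtg
site 6, minus strand: tccatgtgaCCACTAGATGGCagagtagtg

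Sites 7 (chr11:111536212-111536241), 8 (chr11:111537833-111537862), 9 (chr11:111653053-111653082) and 10 (chr11:112067350-112067379) carried it on the plus strand.
site 7, plus strand: cgttgtctaCCGCCAGATGGCagcatgcac
site 8, plus strand: aacatgttaCCAGCAGGTGGCagtccagta
site 9, plus strand: cactggattCCAAAAGAGGGCagtggaagt
site 10, plus strand: cccctgaggCCAGAAGAGGGCgccaaatcc

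Sites 4, 5 and 6 thus pointed towards Kcnj2, site 2 towards Kcnj16 and sites 7 to 10 towards Sox9, and the change fell between sites 6 and 7, whose summits were 3569 bp apart. The core of site 7 had 1 mismatch and those of the other 7 sites had none. Site 3, between sites 2 and 4, held no core. Site 1, to the left of Kcnj16, held a forward core with 1 mismatch, and to the right of site 10 the strands were mixed. In all, 10 sites held a forward core and 6 a reverse core, and none of the 4 sites at or beyond Sox9 held one within 50 bp. At site 22, the site called most often, the nearest match was 62 bp from the summit on the minus strand with 1 mismatch (chr11:112779929-112779958), outside the window of the search.
site 22, minus strand: tgaggtggaCCAGCAGGGGCCcgggtgggg

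**Figure D1:**
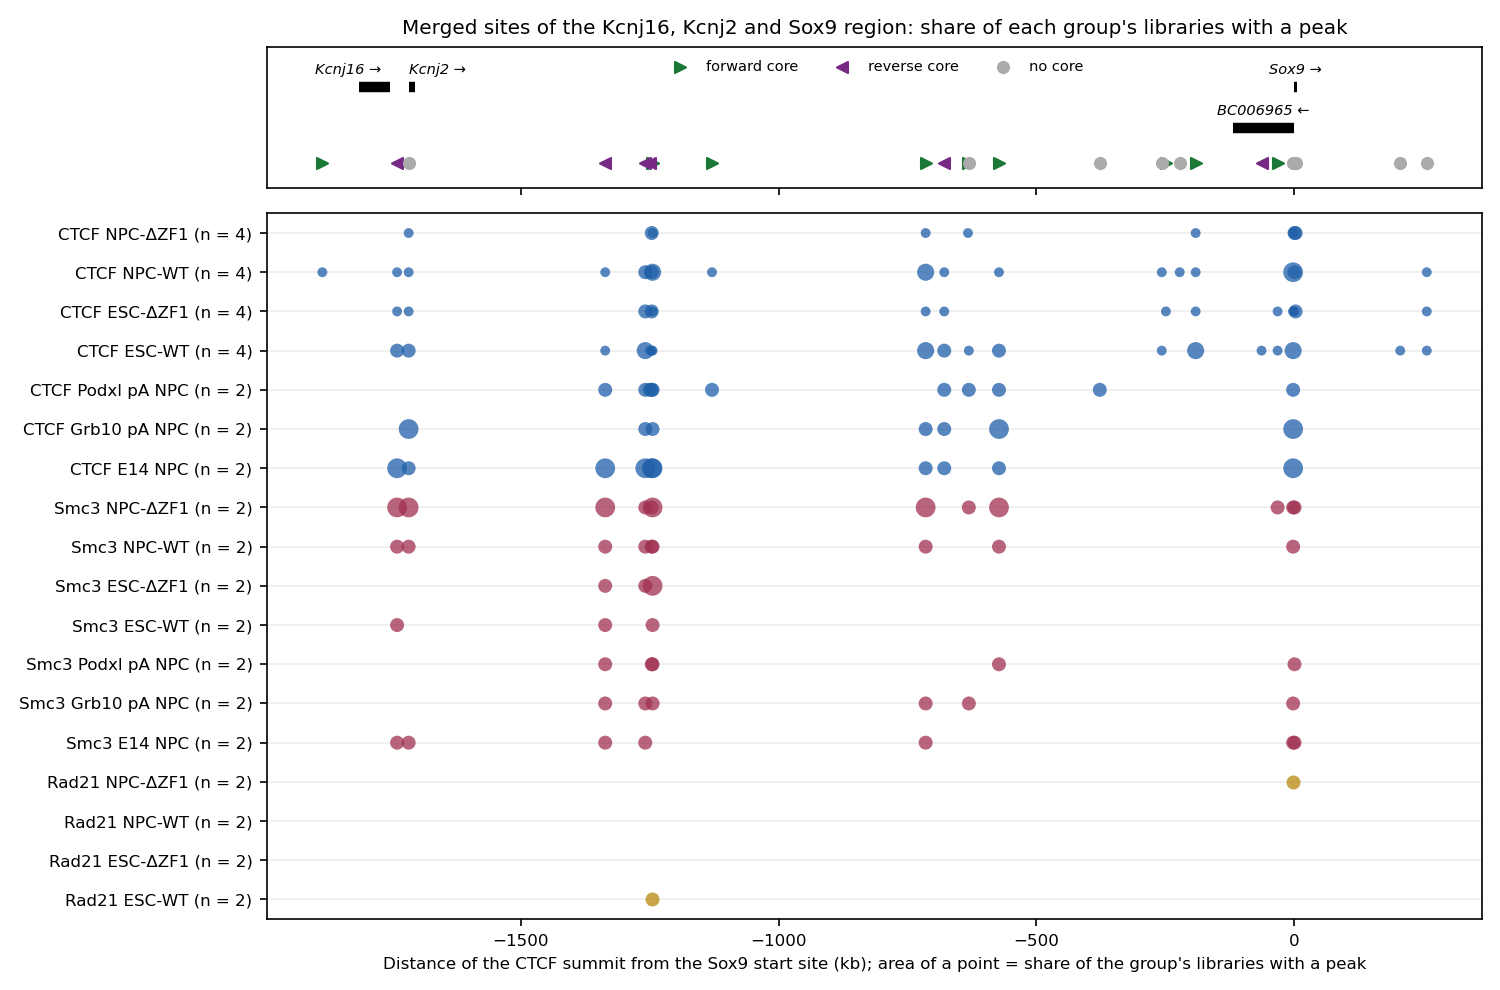
Map of the 26 sites by distance of the CTCF summit from the Sox9 start site (horizontal axis, kb), with 1 line per antibody and group and the area of a point showing which share of a group had a peak. The upper panel shows the genes as bars with an arrow for their direction and the strand of the core motif at each site. The core is reverse at sites 2, 4, 5 and 6 and forward at sites 7 to 10, so that it changes within the cluster of sites 5 to 8, and the Rad21 lines hold 2 points in all.

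All 26 sites had a CTCF peak in at least 1 of the 22 CTCF libraries. No site was called in 20 or more of the 22 (0%, against 7.04% of all CTCF sites), and 2 sites were called in 11 to 19 libraries (7.69%, against 21.0%). A further 11 were called in 4 to 10 (42.3%, against 30.2%) and 13 in 1 to 3 (50.0%, against 41.8%), of which 7 were called in a single library. The level at each site was expressed as the percentile of its fold enrichment, which is the percentage of the library's own peaks with an enrichment at or below it. The 123 CTCF calls had a median percentile of 32.6 (range 0.40 to 86.5), and 31.7% of them lay above the middle of their list. None of the calls lay above the 90th percentile.

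**Figure D2:**
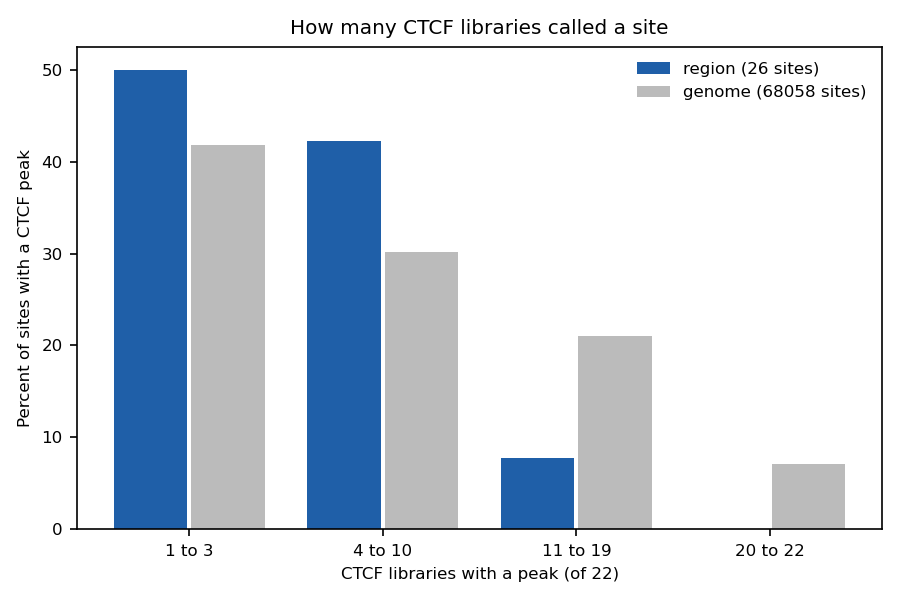
Percent of sites with a CTCF peak (vertical axis) by the number of the 22 CTCF libraries that called the site (horizontal axis), for the 26 sites of the region and the 68058 of the genome. The region has no site in the class of 20 to 22 libraries, which holds 7.04% in the genome.

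Cohesin was called less often. An Smc3 peak lay at 12 of the 26 sites (46.2%, against 58.8% of all merged sites) and a Rad21 peak at 2 (7.69%, against 18.6%). No site held Rad21 or Smc3 without a CTCF peak in any library, against 10.3% of all merged sites. Of the 12 sites called in at least 5 CTCF libraries 10 also had an Smc3 peak, and of the other 14 sites 2 did. The same shares were not counted over the genome, so this is not shown to be particular to the region. At the sites with a core motif the median distance from the Smc3 summit to the core's centre was 10.5 to 25.5 bp. That of the CTCF summits at the same sites was 6.5 to 21.5 bp.

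The number of sites a library called followed no group cleanly. CTCF was called at 4, 0, 0 and 8 sites in NPC-ΔZF1 replicates 1 to 4, against 9, 6, 9 and 3 in NPC-WT. It was called at 14, 0, 2 and 1 sites in ESC-ΔZF1 replicates 1 to 4, against 16, 7, 6 and 1 in ESC-WT. Taken without pairs, the groups overlapped in both cell types. With same-numbered libraries as pairs, ΔZF1 called fewer sites than WT in replicates 1, 2 and 3 of both cell types. In replicate 4 it called 8, against 3, in NPCs and 1, against 1, in ESCs. The lists themselves differed in length, from 5755 to 45941 peaks for CTCF, 8169 to 34104 for Smc3 and 1306 to 10415 for Rad21. Replicates 1 and 4 had a higher fragment coverage and wider peaks than replicates 2 and 3, so replicates 1 and 4 and replicates 2 and 3 are also given apart. No label names them as batches, and the split rests on these properties of the lists. In replicates 1 and 4 NPC-ΔZF1 libraries made 12 calls in the region, against 12 in NPC-WT, and ESC-ΔZF1 libraries 15, against 17 in ESC-WT. In replicates 2 and 3 NPC-ΔZF1 libraries made 0 calls, against 15 in NPC-WT, and ESC-ΔZF1 libraries 2, against 13 in ESC-WT. The fewer calls with ΔZF1 thus came mostly from replicates 2 and 3, where the ΔZF1 lists were also shorter (5755 and 10242 peaks, against 21339 and 24908, in NPCs, and 15779 and 17092, against 21995 and 23184, in ESCs). The part of list length in the calls was not tested.

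**Figure D3:**
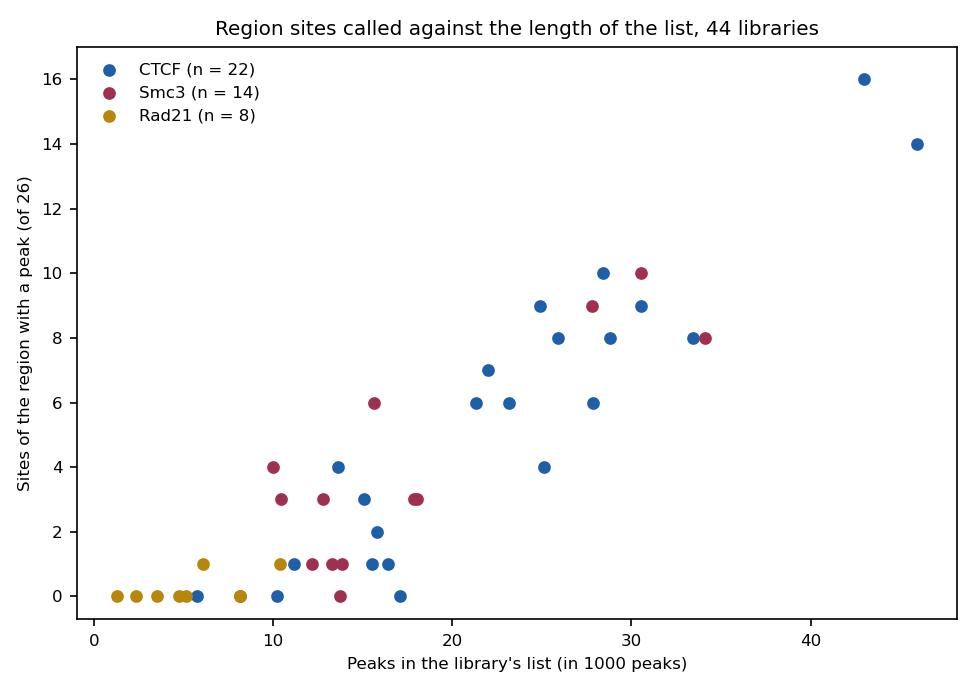
Number of the 26 sites with a peak (vertical axis) against the length of the library's peak list (horizontal axis, in units of 1000 peaks), with 1 point per library and a colour per antibody. Libraries with no call at any site had 1306 to 17092 peaks, and the library with 16 sites had 43003.

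At the left end, site 1 (110897398 to 110897596, upstream of Kcnj16) was called in NPC-WT replicate 3 alone. Site 2 (111042092 to 111042610) lay between Kcnj16 and Kcnj2, 23763 bp before the Kcnj2 start. It had a CTCF peak in 6 libraries and an Smc3 peak in 5. No NPC-ΔZF1 library had a CTCF peak there, against NPC-WT replicate 2, at percentile 2.51. In ESCs ΔZF1 replicate 1 had one at 11.4, against WT replicates 1 and 3, at 46.8 and 66.3. None of the Podxl pA and Grb10 pA libraries had one, against both E14 libraries, at 49.1 and 11.1.

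Site 3 (111064673 to 111065087) was the nearest to a Kcnj gene, 1355 bp before the Kcnj2 start and outside the window of 1 kb that counts as a start site here. It had 8 CTCF and 4 Smc3 peaks and was called in both Grb10 pA libraries, at percentiles 29.7 and 15.95, against 1 of 2 E14 libraries, at 18.5. In NPCs 1 of 4 ΔZF1 libraries called it, at 41.4, against 1 of 4 WT libraries, at 16.4. In ESCs 1 of 4 ΔZF1 libraries called it, at 53.8, against 2 of 4 WT libraries, at 57.7 and 19.5. No site lay within 1 kb of the start of Kcnj16 or Kcnj2, and 1 site, number 23, did so at Sox9.

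Between Kcnj2 and Sox9, sites 5 to 8 formed a cluster within 14.2 kb, 457.5 to 471.7 kb beyond the Kcnj2 start and 1.24 to 1.26 Mb before the Sox9 start. It was the only group of 4 sites this close in the desert, and it held the change in motif strand. The nearest site to its left was site 4, 77.7 kb away, and the nearest to its right was site 9, 115.2 kb away. Sites 5, 7, 8 and 4 were called in 16, 14, 18 and 13 of the 44 libraries.

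Site 5 (111523448 to 111523936) had a CTCF peak in 11 libraries, and it was the strongest of the region in a single library. Its CTCF fold enrichment in ESC-WT replicate 1 was 21.8, from 53 fragments at the summit, at percentile 86.5. In NPCs no ΔZF1 library called it, against WT replicates 2 and 3, at percentiles 57.5 and 83.7. In ESCs ΔZF1 replicates 1 and 3 called it, at 71.2 and 41.4, against WT replicates 1, 2 and 3, at 86.5, 46.4 and 37.5. The ΔZF1 and WT libraries overlapped in both cell types (exact permutation of the libraries on the percentile, with a library without a peak at 0, two-sided p = 0.429 in NPCs and 0.571 in ESCs). Smc3 was called at site 5 in 5 libraries, at percentiles 32.3 to 60.1.

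Site 7 (111535788 to 111536416) had a CTCF peak in 10 libraries, with the highest median percentile of the region, 56.6. In NPCs ΔZF1 replicates 1 and 4 called it, at 57.5 and 83.4, against WT replicates 1 and 3, at 51.5 and 50.0. In ESCs ΔZF1 replicates 1 and 3 called it, at 59.0 and 64.7, against WT replicate 1, at 55.8. At this site ΔZF1 libraries therefore had as many calls as WT libraries in NPCs and 1 more in ESCs, at percentiles above those of WT. It was 1 of the 2 sites with a Rad21 peak, which was in neither ESC-ΔZF1 library and in 1 of 2 ESC-WT libraries, replicate 2 (fold enrichment 6.63, percentile 51.3). The Rad21 lists of replicates 1 and 2 held 1306 and 2347 peaks in ESC-ΔZF1, against 3539 and 10415 in ESC-WT.

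Site 8 (111537545 to 111538111), 1611 bp from site 7, had 10 CTCF and 8 Smc3 peaks. In NPCs CTCF was called in ΔZF1 replicate 4, at 58.7, against WT replicates 1, 3 and 4, at 73.7, 28.2 and 30.5. In ESCs it was called in 1 library each, at 76.2 in ΔZF1 and at 62.3 in WT, both replicate 1. Smc3 was called in both NPC-ΔZF1 libraries, at 85.8, the highest Smc3 percentile in the region, and 78.2, against 1 of 2 NPC-WT libraries, at 52.7. In ESCs Smc3 was called in both ΔZF1 libraries, at 68.8 and 12.4, against 1 of 2 WT libraries, at 36.6. Site 6 (111532576 to 111532889) was called by CTCF in ESC-WT replicate 1 and Podxl pA replicate 1 alone.

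Site 4 (111445782 to 111446256) had more Smc3 than CTCF peaks, 8 of 14 libraries against 5 of 22. Smc3 was called there in at least 1 library of each of the 7 Smc3 groups. In NPCs its percentiles were 70.2 and 61.1 in the 2 ΔZF1 libraries, against 60.5 in 1 of the 2 WT libraries. CTCF was called in 1 of 2 Podxl pA libraries, at 21.0, and in no Grb10 pA library, against both E14 libraries, at 42.4 and 23.5.

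**Figure D4:**
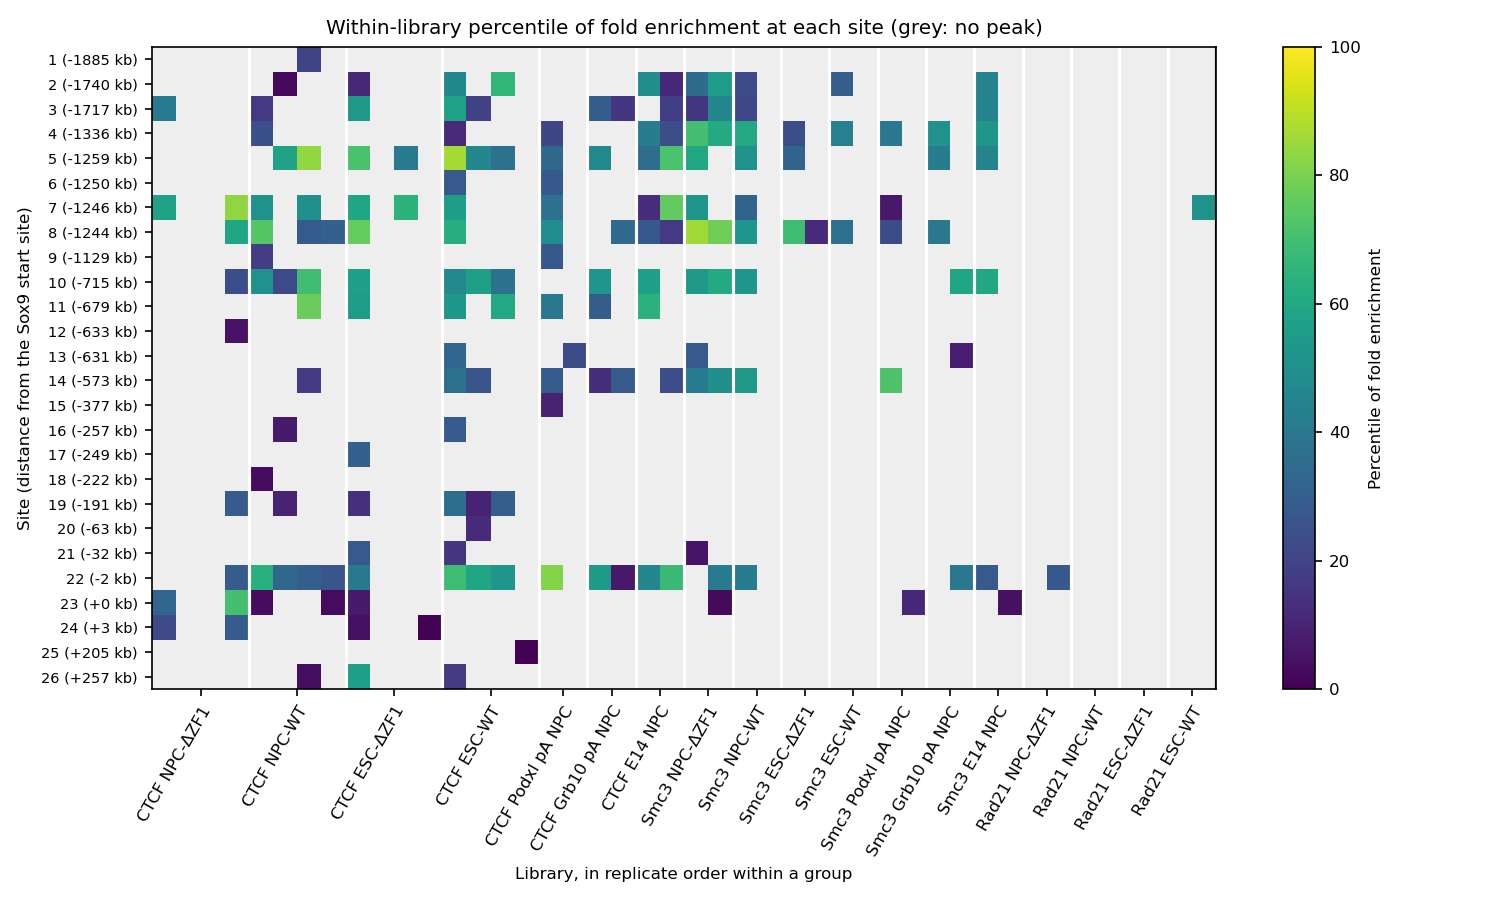
Within-library percentile of fold enrichment (colour, 0 to 100) at each of the 26 sites (vertical axis, with the distance from the Sox9 start) in each of the 44 libraries (horizontal axis, in groups), with grey where the library called no peak. Sites 5, 7, 8, 10 and 22 hold most of the lighter cells, and the Rad21 columns hold 2.

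Farther towards Sox9, site 10 (112067188 to 112067567) had 10 CTCF and 5 Smc3 peaks. In NPCs ΔZF1 replicate 4 called CTCF there, at percentile 23.9, against WT replicates 1, 2 and 3, at 50.7, 22.2 and 69.5. In ESCs ΔZF1 replicate 1 called it, at 56.4, against WT replicates 1, 2 and 3, at 47.2, 56.7 and 37.5. Smc3 was called in both NPC-ΔZF1 libraries, at 54.2 and 61.1, against 1 of 2 NPC-WT libraries, at 52.7, and in no ESC library. Site 11, 36.0 kb to its right, had 7 CTCF peaks at percentiles 29.7 to 77.3 and no cohesin peak. Site 14 (112209430 to 112209756) had 7 CTCF and 4 Smc3 peaks. Site 19 (112590784 to 112591191) had 6 CTCF peaks, of which 3 were in ESC-WT replicates 1, 2 and 3, against 1 in ESC-ΔZF1, and no cohesin peak. Each of sites 12, 15, 17, 18, 20 and 25 was called in 1 CTCF library, at percentiles 0.68 to 30.7. Sites 9, 13, 16 and 21 were called in 2 CTCF libraries and site 26 in 3.

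Site 22 (112779733 to 112780199) was the most often called of the region, with CTCF in 14 of 22 libraries, Smc3 in 4 and Rad21 in 1. It lay in an intron of BC006965, 2218 bp before the Sox9 start. In NPCs ΔZF1 replicate 4 called it, at percentile 29.0, against all 4 WT replicates, at 63.5, 33.6, 30.2 and 26.5. In ESCs ΔZF1 replicate 1 called it, at 40.5, against WT replicates 1, 2 and 3, at 68.9, 58.7 and 52.3. With libraries without a peak at 0 the mean percentile was 7.25 in NPC-ΔZF1 and 38.5 in NPC-WT (exact permutation, two-sided p = 0.0571, n = 4 each), and 10.1 in ESC-ΔZF1 and 44.99 in ESC-WT (exact permutation p = 0.143). The groups overlapped in both cell types, and the smallest p that 4 against 4 libraries allow is 0.0286. With same-numbered libraries as pairs, ΔZF1 was lower in 3 of 4 NPC pairs and higher in 1, and lower in 3 of 4 ESC pairs, with no peak in either library of the other. The exact paired permutation gave a two-sided p of 0.25 in NPCs and 0.25 in ESCs, where 4 pairs allow no p under 0.125. When all sites with a peak in these NPC libraries were fitted with limma on the same scale, site 22 was 31.2 ± 10.5 (SE) percentile points lower in ΔZF1, a difference of −31.2 with an adjusted p of 0.681.

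Loss of calls of this size was common in the genome. Of the 8849 sites called in all 4 NPC-WT libraries, 13.7% were called in at most 1 NPC-ΔZF1 library. Of the 9131 sites called in 3 ESC-WT libraries, 22.6% were called in at most 1 ESC-ΔZF1 library. In the other NPC lines site 22 was called in 1 of 2 Podxl pA libraries, at 81.4, in both Grb10 pA libraries, at 54.6 and 6.67, and in both E14 libraries, at 46.2 and 67.4. Rad21 was called there in NPC-ΔZF1 replicate 2 (fold enrichment 4.83, percentile 27.5), the only Rad21 peak of the region besides that at site 7.

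**Figure D5:**
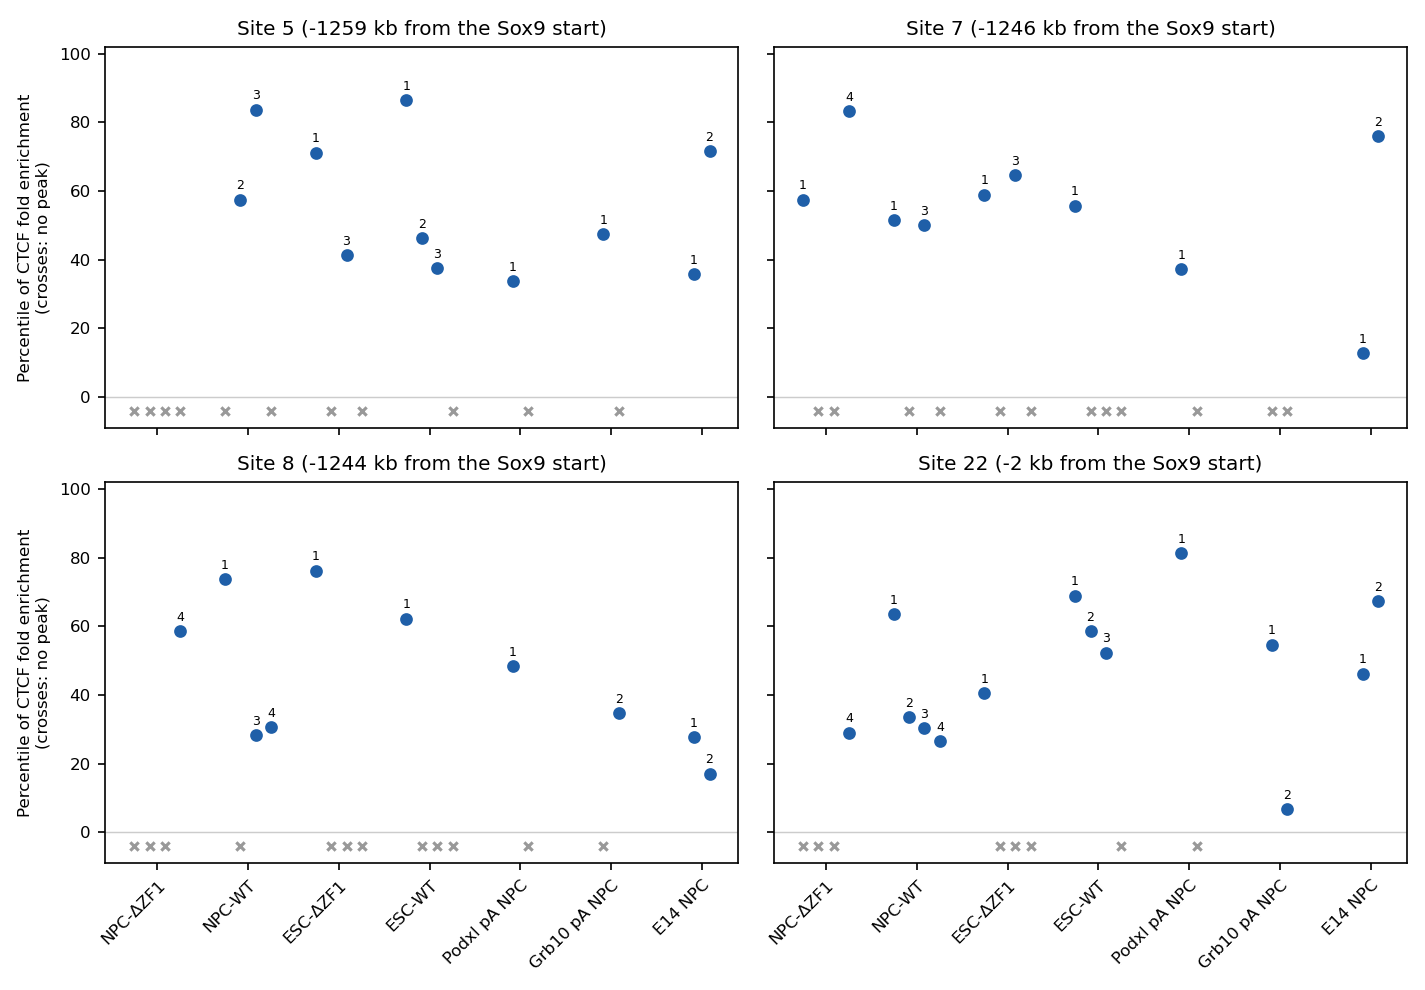
Percentile of CTCF fold enrichment (vertical axis) in each library of the 7 CTCF groups (horizontal axis) at sites 5, 7, 8 and 22, with the replicate number above each point and a cross below 0 for a library with no peak. At site 22 all 4 NPC-WT libraries and 1 NPC-ΔZF1 library have a point, and at site 7 there are 2 points in each of these groups.

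Sites 23 and 24 lay in exons of Sox9, 420 and 2536 bp after its start. Site 23 (112782350 to 112783142) had CTCF peaks in NPC-ΔZF1 replicates 1 and 4, at percentiles 32.5 and 70.6, against NPC-WT replicates 1 and 4, at 3.15 and 3.04. In ESCs it had one in ΔZF1 replicate 1, at 7.40, and none in WT. Site 24 (112784563 to 112785072) had CTCF peaks in 4 libraries, all of them ΔZF1, at 22.2 and 29.1 in NPC replicates 1 and 4 and at 4.63 and 0.40 in ESC replicates 1 and 4. No WT, E14, Podxl pA or Grb10 pA library called it. Both sites had the highest GC content of the region, with 68.7% and 61.7% G and C and 17 and 15 CpG dinucleotides in the 201 bp around the summit, against a median of 43.8% and 2 over the other 24 sites and 49.8% and 3 over all CTCF sites. The median local background of their CTCF peaks was 3.23 and 2.47 times the lowest background of the same library, while the medians of the other 24 sites ranged from 1.00 to 2.59 times. The part of base composition and background in these calls was not tested.

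The comparisons between groups ask whether sites of the region were gained or lost with ΔZF1, with differentiation or with truncation of an RNA. A site was counted as switched if every library of one group and no library of the other called it. For CTCF no region site switched with ΔZF1 in NPCs (0 of 19 sites with a peak, against 0.452% of the genome's sites) or in ESCs (0 of 21, against 0.0485%). Without NPC-ΔZF1 replicate 4, site 22 was called in WT only in NPCs (1 of 18, against 2.56% of the genome's sites in this setting and direction). None switched between NPC-WT and ESC-WT (0 of 22, against 0.136%) or between NPC-ΔZF1 and ESC-ΔZF1 (0 of 15, against 0.232%).

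Within replicates 1 and 4 or 2 and 3 of CTCF alone some sites did switch. In replicates 1 and 4 alone site 24 was called in both ΔZF1 and no WT library in NPCs (1 of 12 sites, with 3.07% of the genome's sites in this direction) and in ESCs (1 of 20, against 2.26%). Over both cell types, 0.243% of 62528 sites were called in all 4 ΔZF1 and none of the 4 WT libraries of replicates 1 and 4, and site 24 was the 1 such site of the region. This place and its switch in ESCs need the ESC-ΔZF1 replicate 4 peak, at percentile 0.40 and fold enrichment 2.52. The −log10 q of that peak was 2.33, close to the authors' threshold for a peak. Its summit was at 112785045, against 112784737 to 112784783 in the other ΔZF1 libraries that called the site. Site 24 was singled out after its values were seen. In replicates 2 and 3 alone sites 5, 10 and 22 were called in both WT and no ΔZF1 library in NPCs (3 of 12, against 20.3% of the genome's sites), and sites 10, 19 and 22 in ESCs (3 of 10, against 7.46%). Site 23 was called in both NPC-WT libraries and no ESC-WT library of replicates 1 and 4 (1 of 20, against 1.73%).

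For Smc3, region sites switched only between the cell types with ΔZF1, where switching was also common in the genome. Sites 2, 3, 10 and 14 were called in both NPC-ΔZF1 libraries and in neither ESC-ΔZF1 library (4 of 12 sites, against 20.8% of the genome's sites in this direction). The Smc3 percentiles in NPC-ΔZF1 were 35.4 and 55.3 at site 2, 16.3 and 46.4 at site 3, 54.2 and 61.1 at site 10, and 41.8 and 49.8 at site 14. The NPC-ΔZF1 lists held 30516 and 34104 peaks, against 18023 and 12181 in ESC-ΔZF1, and with equal peak numbers 0 sites of the region switched. That setting keeps the 12181 peaks of lowest p in each list, so region sites can drop out of it. How many remained is not given here, so its 0 cannot decide whether these sites differed. Without NPC-ΔZF1 replicate 2 the count of switched sites was 7, a setting to which the 20.8% does not apply. On the percentile, with uncalled libraries at 0, 6 of the 12 sites did not overlap, with NPC-ΔZF1 above (48.8% in the genome). With 2 against 2 libraries this has an exact permutation p of 0.333, the smallest possible. For sites 2, 3, 10 and 14 it follows from the switch already counted, and the others were sites 4 and 8. Site 8 was the 1 site of the region called in all 4 of these libraries. Its normal score of the rank, in SD units over the sites called in all 4, differed by 0.85 ± 0.48 (SE) with an adjusted p of 0.25 by limma, where 13.6% of the genome's sites passed. Without ESC-ΔZF1 replicate 1 its adjusted p by limma was 0.00258, where 24.2% passed. That fit holds 1 ESC-ΔZF1 library, which is assumed to vary like the NPC-ΔZF1 libraries.

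Between NPC-ΔZF1 and NPC-WT no Smc3 site switched (0 of 12, against 8.92%). With uncalled libraries at 0, both ΔZF1 libraries lay above both WT libraries at sites 2, 4, 8 and 10 (4 of 12, against 34.8% of the genome's sites). Of the WT libraries replicate 1 alone had a peak at these sites. The lower ΔZF1 percentile was 35.4, 61.1, 78.2 and 54.2, against 22.3, 60.5, 52.7 and 52.7 in that library. NPC-WT replicate 2, with 13710 peaks, called no site of the region with Smc3, and NPC-WT replicate 1, with 27798, called 9. Without replicate 2 of NPC-WT, 0 of the sites switched between these groups, and without replicate 1 of NPC-WT 6 did. The count was 1 without NPC-ΔZF1 replicate 1 and 2 without NPC-ΔZF1 replicate 2. Smc3 did not switch between ESC-ΔZF1 and ESC-WT (0 of 4, against 3.32%) or between NPC-WT and ESC-WT (0 of 9, against 6.53%), and without NPC-WT replicate 2 the comparison of NPC-WT with ESC-WT had 6 switched sites. The genome percentages here are for all libraries. The share was also counted in the settings without a library and is not printed here. Those counts therefore do not show that the region differs from the genome. Rad21 had 1 site in each of its comparisons and none switched. The genome's percentages for Rad21 were 7.77% for ΔZF1 against WT in NPCs, 14.2% in ESCs, 6.53% for NPC-WT against ESC-WT and 23.8% for NPC-ΔZF1 against ESC-ΔZF1.

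Truncation of the Podxl or Grb10 RNA was compared with E14 in NPCs, and both comparisons share the E14 libraries. Sites 2, 4 and 7 had a CTCF peak in neither Grb10 pA library and in both E14 libraries (3 of 10 sites, against 5.46% of the genome's sites in this direction). The E14 percentiles were 49.1 and 11.1 at site 2, 42.4 and 23.5 at site 4, and 12.8 and 76.0 at site 7. At equal peak numbers 2 sites switched, and without E14 replicate 2 the count in both directions was 5. In Podxl pA, site 2 alone had this pattern (1 of 14, against 4.85%), and it did not at equal peak numbers. Podxl pA replicate 2, with 15505 peaks, called 1 site of the region (site 13), and replicate 1, with 28405, called 10, so the Podxl pA values rest on replicate 1. The count in both directions was 7 without Podxl pA replicate 1, 4 without Podxl pA replicate 2 and 2 without E14 replicate 1 as well as without E14 replicate 2. The genome percentages of switched sites above are for all libraries. The share was also counted with equal peak numbers and without a library, and is not printed here. Those counts therefore do not show that the region differs from the genome. At equal peak numbers each list is cut to the length of the shortest, so region sites can drop out. On the percentile, with uncalled libraries at 0, 3 of the 14 sites lay below E14 without overlap in Podxl pA (17.8% in the genome), and 3 of the 10 in Grb10 pA (18.8%). Those in Grb10 pA were the switched sites 2, 4 and 7, so this adds nothing to the switch. Those in Podxl pA were the switched site 2 and sites 4 and 5. With 2 against 2 libraries neither comparison can reach p = 0.05 by permutation. At site 22, the 1 site called in all 4 Grb10 pA and E14 libraries, the rank score differed by −1.07 ± 0.61 SD units (limma adjusted p = 0.455, with 0.0% of 15539 sites passing and 2199 at an unadjusted p under 0.05).

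For Smc3 no site switched in Podxl pA (0 of 10, against 6.81%) or in Grb10 pA (0 of 9, against 7.07%). The rescue was also set against the parental line. No site switched between NPC-WT and E14 for CTCF (0 of 17, against 7.3%) or for Smc3 (0 of 10, against 6.52%). At site 2 the CTCF percentile in the 4 NPC-WT libraries, 1 of them with a peak at 2.51 and the others set to 0, lay below both E14 libraries (1 of 17 sites, against 14.4%, exact permutation p = 0.0667, the smallest possible with 4 against 2). Site 22, called in all 6 libraries, differed in rank score by −0.69 ± 0.34 SD units (limma adjusted p = 0.321, with 1.58% of the genome's sites passing).

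By limma the region had 0 sites past an adjusted p of 0.05 in any of the 18 comparisons or in the interaction of ΔZF1 with cell type. In 16 of these 19 fits no site of the region was called in every library, so none could be tested, and in the other 3 the tested site had an unadjusted p of 0.0762 to 0.119, so that 0 sites had one under 0.05.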

How the data were processed

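ChIP-seq peak lists of 44 libraries were used. The authors mapped reads to mm10 (Bowtie2), kept alignments of mapping quality 30 or more, dropped duplicates (Picard) and blacklisted regions, and called peaks in each sample with MACS2 at q 0.01. Versions, and the input used for each list, are not given in the sources used here. A list as deposited by the authors holds the fold enrichment, the ratio of pileup over local background at the summit, the −log10 of the p-value and q-value, and a display score, all made by the authors' caller. The lists state no sequencing depth. Fold and p together gave whole fragments at the summit for all 177 peaks of the region (within 0.002 in −log10 p).

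Peaks of all lists were merged into sites, and a library with several peaks in a site was represented by the most enriched. Named were sites called in at least 20 CTCF libraries, within 1 kb of a member's start, leading between Kcnj2 and Sox9, switched, or past limma, and other sites were named after their values were seen. Ranks were tested with limma 3.58.1 (R 4.3.3) on normal scores over all genome sites called in every compared library, with Benjamini-Hochberg adjustment at 0.05. Single sites were tested by exact permutation over every regrouping of the libraries. The limma fits were tested on simulated data. Of the alternatives, percentiles with uncalled libraries at 0 and the paired tests of single sites were added after seeing the data. The members and lists were chosen with earlier results of these data known.

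Peak names in the replicate 4 lists of the CTCF rescue carry the number 2, and the labels were followed. Deviations from the group means of the CTCF rescue libraries correlated between all 16 same-numbered pairs (r 0.22 to 0.59), while the 48 different-numbered pairs ranged from −0.48 to 0.39. The ranges overlap, and the numbers were taken to pair these libraries because every same-numbered r was above 0.1. Over the other comparisons together same-numbered r ranged from −0.12 to 0.36, and the 2 numbers were not taken as pairs. Within the Smc3 comparisons r was 0.12 to 0.36, and for CTCF in NPC-WT against E14 it was 0.23 and 0.27. By the same threshold the numbers may therefore pair those libraries as well. The study calls the replicates biological and the labels do not, so the p-values measure the spread between libraries.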

Additional observations from a re-analysis of the deposited data

Results flagged for a closer look

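CTCF was called at 14 sites of the region in ESC-ΔZF1 replicate 1, against 0 to 2 in the other 3 libraries of that group. The gap to the nearest library was 0.857 of the group's range, above Dixon's critical value at 95% for 4 libraries. That list was also the longest of the series, with 45941 peaks, and per 10000 peaks the library did not stand apart (3.05, against 0 to 1.27). Of the 9 sets of values tested in this way 1 stood apart, where chance gives about 1 in 20.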

How the results depend on the processing

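Counts of switched sites and of limma calls in the region were small, and 29 of the 180 values obtained by leaving out 1 library differed from the reported count by over 1.5 times. Over the leave-one-out fits the count for CTCF ranged from 0 to 1 for NPC-ΔZF1 against NPC-WT and for NPC-WT against E14, from 2 to 7 for Podxl pA and from 3 to 5 for Grb10 pA against E14, and was 0 throughout for the other 3 CTCF comparisons. For Smc3 it ranged from 4 to 7 for NPC-ΔZF1 against ESC-ΔZF1, from 0 to 6 for NPC-ΔZF1 against NPC-WT and for NPC-WT against ESC-WT, from 0 to 1 for ESC-ΔZF1 against ESC-WT, from 0 to 5 for Podxl pA, from 1 to 2 for Grb10 pA and from 0 to 3 for NPC-WT against E14. For Rad21 it ranged from 0 to 1 in each of the 4 comparisons. No genome share is set beside these leave-one-out counts here, so they do not show that the region differs from the genome. At equal peak numbers it was 0 for Smc3 in NPC-ΔZF1 against ESC-ΔZF1, 1 for Smc3 in NPC-ΔZF1 against NPC-WT and 0 for CTCF in Podxl pA against E14. Each list is cut to the shortest there, which can remove region sites from the count. For CTCF in NPC-WT against E14 it was 1 with peaks of −log10 q of at least 5 and 1 with summits within 150 bp. In replicates 1 and 4 alone it was 1 for ΔZF1 against WT in NPCs and 1 in ESCs, and 1 for NPC-WT against ESC-WT. In replicates 2 and 3 alone it was 3 in NPCs and 3 in ESCs. The cause was not tested, and these settings also hold fewer libraries.

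By limma the count was 0 to 1 without a library for Smc3 in NPC-ΔZF1 against ESC-ΔZF1 and 0 in every other leave-one-out fit. A fit with no region site called in every library can only give a count of 0. With uncalled libraries at 0 the limma count for Smc3 in NPC-ΔZF1 against ESC-ΔZF1 was 2 (sites 10 and 14, adjusted p = 0.0195 and 0.0246, chosen after seeing the data). At both sites 0 of 2 ESC-ΔZF1 libraries had a peak, so every ESC value was a set 0 without spread. This fit therefore cannot decide whether Smc3 differed there. On the same scale 48.8% of the genome's sites had NPC-ΔZF1 above without overlap, a different measure from passing limma. The share of the genome's sites that passed this fit is not printed here, so the 2 sites are not set against the genome. With the replicate block the limma count was 0 in all 18 comparisons, but only 3 of them had a region site called in every library to test. In the 4 CTCF rescue comparisons, whose numbers pair the libraries, 0 region sites could be tested in this way. In the genome the block gave 160 calls for NPC-WT against ESC-WT, against 15 without it. With uncalled libraries at 0 and the block together, chosen after seeing the data, 15 to 22 region sites were tested in each of these 4 comparisons by limma and 0 passed, with 1 at an unadjusted p under 0.05 (site 22 in ESC-ΔZF1 against ESC-WT, unadjusted p = 0.036, adjusted p = 0.647). With the same pairing the exact permutation p at site 5 was 0.5 in NPCs and 0.5 in ESCs. The motif share was 34.6% with no mismatch and 73.1% within 100 bp.

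What depth limits is the call itself: the lists state no reads for a site without a peak, so an uncalled site is not shown to be unbound, and a difference in calls is not shown to be a change in occupancy. With 2 libraries in a group no permutation test can pass 0.05.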
